A study of Mus musculus with 4 samples.

Results

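The 10 genes described here form the relay inside the cell that carries signals of the Toll-like receptors (TLRs), together with a co-receptor. They are the 4 adaptors that carry a TIR domain (Myd88, Tirap, Ticam1 and Ticam2), the 4 members of the IRAK kinase family (Irak1, Irak2, Irak3 and Irak4), the ubiquitin ligase Traf6 and the co-receptor Cd14. They were found by gene symbol among the 17300 Ensembl genes of the deposited expression table, and all 10 were measured. Unc93b1, which escorts nucleic acid sensing TLRs to endosomes, belongs to the same signalling system and is described beside them. RNA came from dendritic cells sorted by flow cytometry out of mouse spleen, in 2 libraries labelled KO and 2 labelled WT. The series title names Siglec-E, an inhibitory sialic acid receptor of myeloid cells, as a control on antigen-presenting cells and on the T cell response that rejects a transplant. The labels give genotype as KO or WT and title the KO samples EKO, a code they do not spell out. They name neither the deleted gene, the strain, the age or sex of the animals, nor a treatment. The word Allo stands in every column name and is not explained. Both KO columns carry numbers that differ from the KO sample titles, so KO A and KO B are the names used for them. Separate animals are not stated for libraries of a group, so p-values reflect only how far these samples differ, possibly for technical reasons. The KO libraries differed in Y-linked RNA. Ddx3y stood at 64.5 (KO A) and 3979 (KO B) normalized counts, against 3102 (WT 1) and 3500 (WT 2), and Eif2s3y at 32 (KO A) and 1921 (KO B), against 1898 (WT 1) and 1725 (WT 2). KO A thus stood apart from the other 3 in these genes. The calls of Cd14 and Irak3 needed KO A and KO B alike, as given beside these members.

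TLRs sense microbial products through their outer domain and signal through an inner TIR domain. All TLRs except TLR3 use MyD88, with TIRAP as a bridge at the plasma membrane, and TLR3 and TLR4 use TRIF (the product of Ticam1), to which TLR4 is bridged by TRAM (the product of Ticam2). MyD88 gathers IRAK4, IRAK1 and IRAK2 into the Myddosome, which hands the signal to TRAF6 and on to NF-kB and MAP kinases, while IRAK-M (the product of Irak3) lacks strong kinase activity and restrains the relay. CD14 transfers lipopolysaccharide to TLR4 with MD-2 and helps TLR4 enter endosomes, and it is best known from monocytes, macrophages and neutrophils.

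Expression is given as the deposited log2 value, whose lowest value in every library was 8.04, and as a normalized count obtained by undoing the variance-stabilizing transform. Low values are compressed on this log2 scale, so the fold of a gene with few reads is larger than its log2 difference shows. The normalized counts summed to between 29002408 and 30952251 per library after the authors' scaling, which hides the depth in reads. Siglece, the gene of Siglec-E, stood at 8.92 and 8.96 in KO, against 10.38 and 10.14 in WT (log2), so the gene was lower in the libraries labelled KO. Of 11864 genes tested, 557 were higher and 265 lower in KO at an adjusted p under 0.05 in limma, or 6.93% in all. After quantile normalization 366 were higher and 282 lower. Dendritic cell markers had summed normalized counts over 16 genes of 420285 (KO A) and 383874 (KO B), against 529619 (WT 1) and 542703 (WT 2). Cd74 alone gave 193842 (KO A), 179481 (KO B), 233470 (WT 1) and 237744 (WT 2) of this sum, so 1 gene weighs most in it. Of the 16 markers, 0 rose, 10 fell and 6 did not pass. Genes were tested if their mean over the libraries lay 1 log2 unit or more over the lowest value. Esam, 1 of the 10, averaged 8.97 in KO and 9.53 in WT (log2), so it was tested only through its WT values.

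Promoter windows of 300 bases (250 before to 50 after a transcription start) were read from RefSeq on GRCm38.p6, an older build than the authors' GRCm39. Windows of 8 of the 10 members were used, and those of Cd14 and Ticam2 were not used here. The windows shown are the 2 of Irak3, the called member with a window, and 1 each of Myd88 and Irak1, where another searched motif matched. Each runs 5′ to 3′ on the strand of the gene, with motif matches in capitals.
Irak3, chr10:120202081-120202380, minus strand: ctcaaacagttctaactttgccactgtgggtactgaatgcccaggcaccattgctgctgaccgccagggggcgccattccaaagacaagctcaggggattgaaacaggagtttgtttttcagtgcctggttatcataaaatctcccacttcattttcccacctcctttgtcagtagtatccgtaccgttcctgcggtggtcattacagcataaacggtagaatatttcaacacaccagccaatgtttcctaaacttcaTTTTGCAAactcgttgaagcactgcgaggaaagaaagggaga
Irak3, chr10:120201548-120201847, minus strand: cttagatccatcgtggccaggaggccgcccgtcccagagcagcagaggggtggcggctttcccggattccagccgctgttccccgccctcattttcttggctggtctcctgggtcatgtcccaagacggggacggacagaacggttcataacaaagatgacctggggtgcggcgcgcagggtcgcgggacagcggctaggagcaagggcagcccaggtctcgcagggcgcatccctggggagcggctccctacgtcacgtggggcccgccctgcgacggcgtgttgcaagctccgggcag
Myd88, chr9:119339969-119340268, minus strand: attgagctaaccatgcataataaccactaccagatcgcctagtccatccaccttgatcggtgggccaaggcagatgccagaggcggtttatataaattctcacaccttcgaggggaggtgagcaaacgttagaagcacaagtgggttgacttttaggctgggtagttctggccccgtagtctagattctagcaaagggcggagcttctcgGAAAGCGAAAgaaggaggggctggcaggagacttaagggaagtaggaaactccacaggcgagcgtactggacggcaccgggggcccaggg
Irak1, chrX:74023872-74024171, minus strand: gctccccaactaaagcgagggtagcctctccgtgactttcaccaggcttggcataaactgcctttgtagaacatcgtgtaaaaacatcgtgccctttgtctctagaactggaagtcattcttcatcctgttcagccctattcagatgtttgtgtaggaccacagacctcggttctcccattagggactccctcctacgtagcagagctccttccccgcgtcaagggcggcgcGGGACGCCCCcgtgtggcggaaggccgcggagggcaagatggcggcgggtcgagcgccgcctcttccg

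Both strands were searched for 6 motifs, chosen with results of these data known. These were the NF-kB consensus, AP-1 (TGANTCA), the cyclic AMP response element (TGACGTCA), PU.1 (GAGGAAGT), C/EBP (TTGCNNAA) and the interferon-stimulated response element by its consensus. The Irak3 window at the outer start held 1 C/EBP match on the antisense strand, a motif found in 10.8% of all 32851 promoter windows. The inner Irak3 window held no match. Myd88 held 1 response element of the interferon type, which 3.44% of windows held, and Irak1 held 1 NF-kB match that reads as one on both strands, against 8.46% of windows. None of the windows of Irak2, Irak4, Tirap, Ticam1 or Traf6 held any of the 6 motifs. A match here describes letters in a window and is not a binding site.

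Cd14 and Irak3 were the members that rose in KO cells. The other 8 did not pass the threshold, and none fell. This was 2 of 10 genes higher against a background of 4.69% of all tested genes, and 0 of 10 lower against 2.23%. The median difference of the members was -0.10, against -0.0017 over all tested genes (log2). KO and WT libraries did not overlap for 8 members, 3 with KO above and 5 with KO below WT. Among all tested genes 56.2% did not overlap, 28.1% with KO above and 28.2% with KO below, so separation of 2 against 2 libraries was common in this table.

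**Figure D1:**
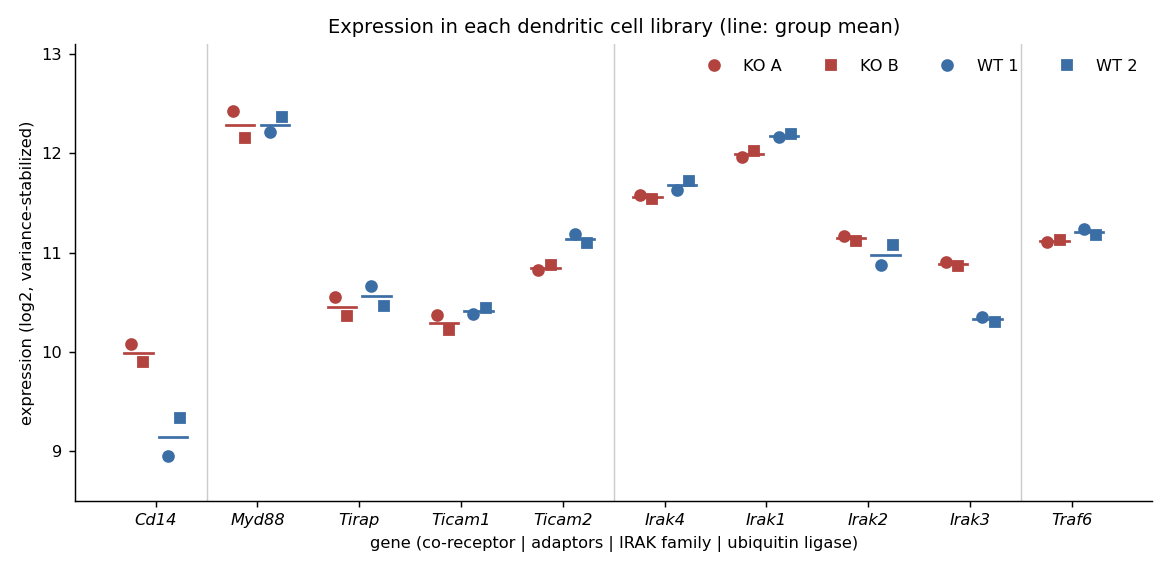
Deposited log2 expression of the 10 genes (vertical axis) in KO A, KO B, WT 1 and WT 2 (red KO, blue WT), with a line at each group mean. Cd14 and Irak3 stand higher in both KO libraries than in both WT libraries, with Cd14 at 10.08 and 9.90 in KO, against 8.95 and 9.34 in WT.

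Cd14, the lipopolysaccharide co-receptor, had 620.4 (KO A) and 504 (KO B) normalized counts, against 109 (WT 1) and 228 (WT 2). Both KO libraries were above both WT libraries, and WT 1 was the lowest of the 4. The log2 level averaged 9.99 ± 0.13 in KO and 9.14 ± 0.27 in WT (mean ± SD, n = 2 libraries). It rose by 0.85 (SE 0.144, adjusted p = 0.0278, limma), and its mean count was 3.33-fold higher, or 5.14-fold without WT 2 and 2.46-fold without WT 1. Single KO libraries exceeded single WT libraries by between 0.57 and 1.13. The gene stood at place 176 from the top among the 11864 differences.

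Irak3, which encodes the inhibitory family member IRAK-M, had 1431 (KO A) and 1378 (KO B) normalized counts, against 835 (WT 1) and 795 (WT 2). The libraries of each group lay close together and the groups did not overlap. Its log2 level averaged 10.89 ± 0.029 in KO and 10.33 ± 0.034 in WT (mean ± SD, n = 2 libraries). It rose by 0.56 (SE 0.0857, adjusted p = 0.0239, limma), with 1.72-fold more counts. Single KO libraries exceeded single WT libraries by between 0.51 and 0.60. Irak3 shares 192 exon bases with Tmbim4 on the opposite strand, 5.22% of its exons, and Tmbim4 differed by 0.23 (adjusted p = 0.198, limma).

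Both calls needed both KO libraries. Without KO A, Cd14 differed by 0.76 (adjusted p = 0.115, limma) and Irak3 by 0.54 (adjusted p = 0.0858, limma), and 0 of the 11864 genes passed (unadjusted, 2508 had a p below 0.05). With KO B left out they differed by 0.93 (adjusted p = 0.109, limma) and 0.58 (adjusted p = 0.101, limma), and 3 genes passed (unadjusted, 2448 had a p below 0.05). These were 0% and 0.0253% of the genes tested. Without WT 1 or without WT 2 both stayed past the threshold.

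In bulk RNA, a change in the number of cells of a type and a change in RNA per cell cannot be told apart. Markers of cell types known to carry CD14 were higher in the KO libraries as well. Over all tested genes, 4.69% were called higher and 2.23% lower. Among 12 monocyte markers 5 were called higher and 0 lower. Their summed normalized counts were 181521 (KO A) and 170819 (KO B), against 114018 (WT 1) and 95413 (WT 2). Among 12 macrophage markers 6 were called higher and 0 lower, with sums of 48709 (KO A) and 52274 (KO B), against 31531 (WT 1) and 30915 (WT 2). Among 12 neutrophil markers 4 were called higher and 0 lower, with sums of 256553 (KO A) and 241420 (KO B), against 219108 (WT 1) and 84008 (WT 2). Within WT, each of these sums was higher in WT 1, where Cd14 was lower and Irak3 higher than in WT 2. Within KO, the monocyte and neutrophil sums were higher in KO A, as were Cd14 and Irak3, and the macrophage sum was higher in KO B.

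Of 14 immediate early genes, which respond within minutes to stimulation or to tissue dissociation, 11 rose, 0 fell and 3 did not pass. Their sums were 138354 (KO A) and 160377 (KO B), against 18843 (WT 1) and 51978 (WT 2). WT 1 was lowest in this sum as in Cd14, but KO B was highest in this sum and KO A in Cd14. Irak3 was highest in KO A and lowest in WT 2, unlike this sum. Nr4a1 was in both this list and the monocyte list, and its higher call counts in each. It added 15759 (KO A), 17830 (KO B), 3984 (WT 1) and 6522 (WT 2) normalized counts to both sums, so these are not separate observations. Among 10 genes that mark NK cells, 9 were called higher and 0 lower, with sums of 17884 to 21034 in KO, against 8886 to 8890 in WT. Among 10 red cell genes, 5 were called higher and 0 lower, with sums of 46196 to 68338 in KO, against 3893 to 19197 in WT. None of 10 B cell markers was called (0 of 10), while among the 4 T cell markers tested, 1 was called higher and 0 lower. In every list at least 1 library had each marker in the table above the lowest value. The part of these cells or of immediate early responses in the Cd14 and Irak3 values was not tested.

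**Figure D2:**
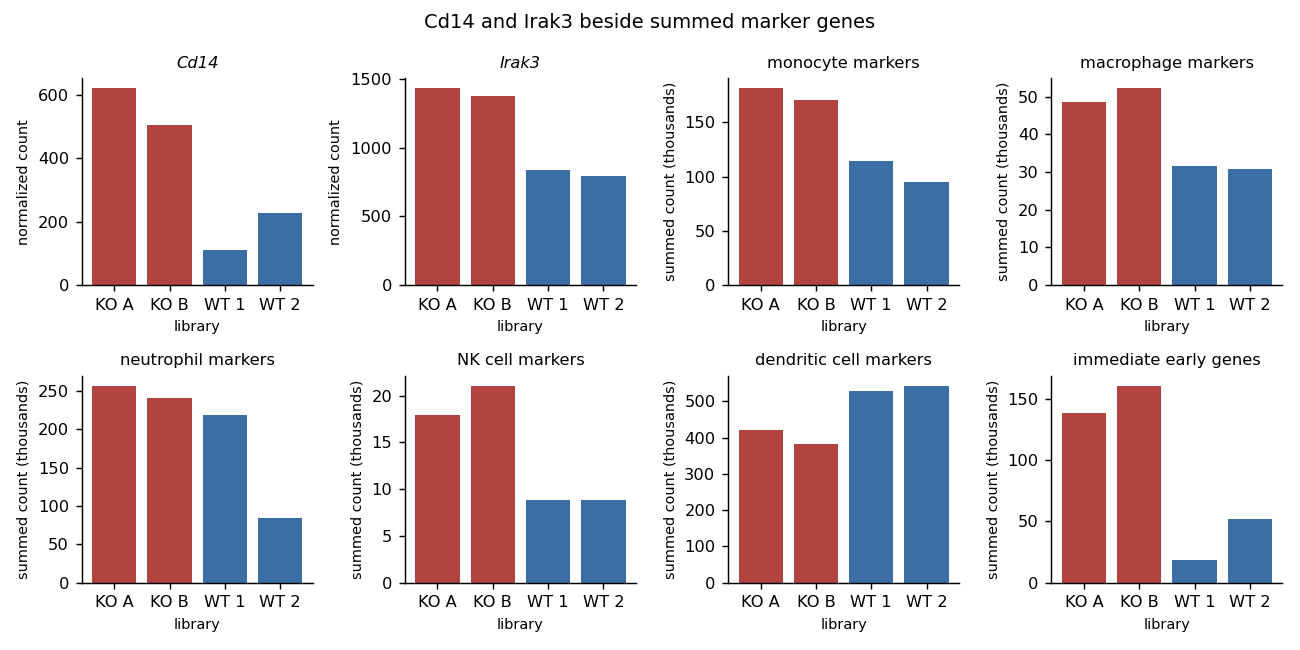
Normalized counts of Cd14 and Irak3, and summed normalized counts of marker lists (vertical axes from 0), in KO A, KO B, WT 1 and WT 2. Monocyte, macrophage and NK sums are higher in both KO libraries, WT 1 is near KO in the neutrophil sum, and dendritic cell markers are lower in KO.

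Among the adaptors, none passed the threshold. Myd88, the adaptor shared by most TLRs and by interleukin 1 receptors, stood at 12.42 (KO A) and 12.15 (KO B), against 12.22 (WT 1) and 12.36 (WT 2). The groups overlapped, with the KO libraries at the top and bottom of the range. The difference was -0.0017 with a 95% interval of -0.28 to 0.27 (adjusted p = 0.996, limma), where intervals of single genes are not adjusted for the number of genes.

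Ticam2, the TRIF bridge of TLR4, showed the lowest difference of the 10. It had 1331 (KO A) and 1383 (KO B) normalized counts, against 1828 (WT 1) and 1696 (WT 2). Both KO libraries were below both WT libraries. The log2 difference was -0.29, with an interval of -0.50 to -0.08 (unadjusted p = 0.0130, adjusted p = 0.0988, limma), so it missed the threshold. Ticam2 shares 838 exon bases with Tmed7 on the same strand, 14.5% of its exons, so the authors' counting could have split reads between them. Tmed7 differed by 0.07 (adjusted p = 0.733, limma).

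Ticam1, which encodes TRIF, stood at 10.37 and 10.22 in KO, against 10.39 and 10.45 in WT. KO lay below WT by a narrow gap, and the difference was -0.12 (95% interval -0.35 to 0.11, adjusted p = 0.490, limma). Tirap, the membrane bridge to MyD88, was at 10.55 and 10.36 in KO, against 10.66 and 10.46 in WT, with overlapping groups. It differed by -0.11 (95% interval -0.38 to 0.17, adjusted p = 0.617, limma). Exons of Myd88 and Tirap also overlap genes on the opposite strand, Acaa1a by 290 bases and Srpr by 39 bases, and these differed by -0.14 and -0.02 (adjusted p = 0.461 and 0.922, limma).

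In the IRAK family only Irak3 passed. Irak4, the kinase that starts the relay, was at 11.58 and 11.54 in KO, against 11.63 and 11.72 in WT. It differed by -0.12 (95% interval -0.32 to 0.08, adjusted p = 0.430, limma), and KO lay just below WT. Irak4 shares 395 exon bases with Twf1 on the opposite strand, and Twf1 differed by 0.23 (adjusted p = 0.186, limma).

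Irak1, the kinase that IRAK4 phosphorylates, had 3473 (KO A) and 3646 (KO B) normalized counts, against 4080 (WT 1) and 4161 (WT 2). KO was below WT in every pair of libraries. The log2 difference was -0.19 (95% interval -0.38 to 0.0015, adjusted p = 0.206, limma). Irak1 lies on the X chromosome, and KO A had little RNA of Y-linked genes. Without KO A the Irak1 difference was -0.16 (adjusted p = 0.394, limma), and the part of sex in it was not tested.

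Irak2, which sustains later TLR signalling, was at 11.17 and 11.12 in KO, against 10.87 and 11.07 in WT. KO was above WT, with the gap to WT 2 small. It differed by 0.17 (95% interval -0.07 to 0.41, adjusted p = 0.342, limma).

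The balance within the family was described by Irak3 against its relatives in the same library. The Irak3 log2 level minus the mean of Irak1, Irak2 and Irak4 was -0.66 (KO A) and -0.69 (KO B), against -1.20 (WT 1) and -1.36 (WT 2). This gap differed by 0.60 between the groups and rests on the same Irak3 values that gave its call. The exact permutation test gave a two-sided p = 0.333. No smaller p is possible with 2 against 2 libraries, so the test cannot decide. In counts per kilobase, Irak3 made up 18.0% ± 0.40 of the 4 IRAK genes in KO and 10.8% ± 0.82 in WT (mean ± SD, n = 2 libraries).

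**Figure D3:**
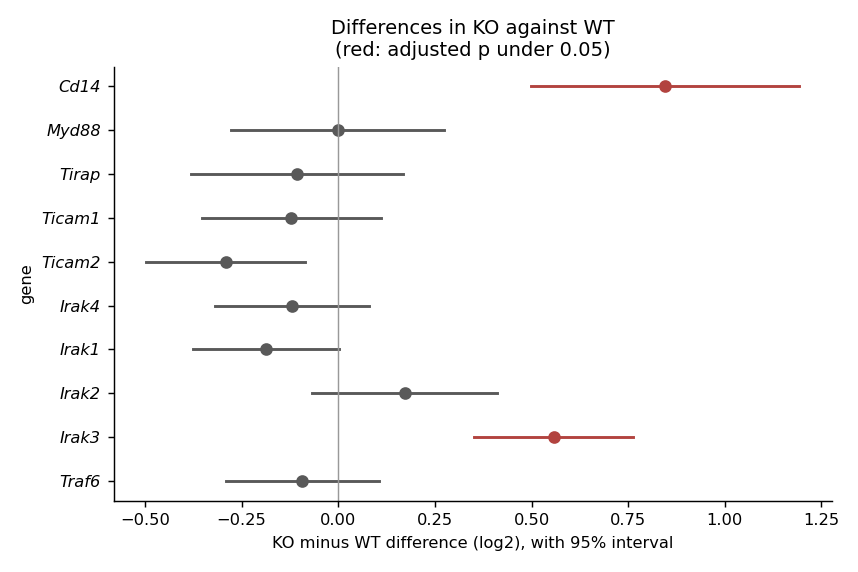
KO minus WT difference of each gene on the log2 scale (horizontal axis) with its 95% interval from limma. Cd14 at 0.85 and Irak3 at 0.56 passed the threshold (red), and the other 8 differences lie between -0.29 and 0.17.

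Traf6, the ubiquitin ligase below the Myddosome, was at 11.11 and 11.12 in KO, against 11.24 and 11.18 in WT. KO lay below WT in each library pair. It differed by -0.09 (95% interval -0.29 to 0.10, adjusted p = 0.534, limma). Unc93b1, the TLR escort, was at 14.20 and 13.97 in KO, against 14.34 and 14.37 in WT. KO was below WT, and the difference was -0.27 (95% interval -0.51 to -0.03, unadjusted p = 0.0322, adjusted p = 0.159, limma).

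Levels of different genes were compared as normalized counts per kilobase of annotated exon, from the GENCODE M21 basic set. Myd88 was the most abundant of the 10, at 2301 ± 343 in KO and 2296 ± 182 in WT (mean ± SD, n = 2 libraries). Irak1 came next, at 901 ± 31 in KO and 1043 ± 14 in WT. Both stood clear of the next gene in each library of their group. Cd14 took place 6 of the 10 in KO, at 342 ± 50, and place 10 in WT, at 103 ± 51. Irak3 took place 5 in KO, at 436 ± 12, and place 8 in WT, at 253 ± 9.0. Tirap was lowest in KO, at 197 ± 26, and stood at place 9 in WT, at 219 ± 31.

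Neighbours whose libraries overlapped, and so did not differ beyond their spread, were Cd14 with Ticam2 and Traf6 with Ticam1 in KO, and Irak2 with Ticam2 and Traf6 with Ticam1 in WT. With the longest transcript as the length, Irak4 and Irak2 exchanged places in KO, and the order was otherwise as given.

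**Figure D4:**
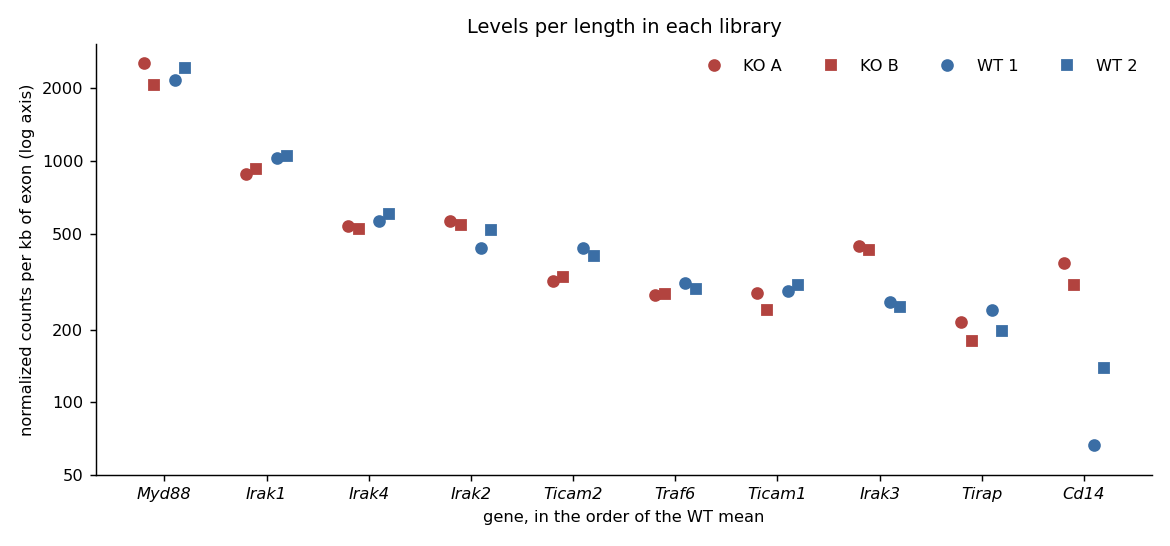
Normalized counts per kilobase of exon on a log axis (vertical) for the 10 genes in the order of the WT mean, in KO A, KO B, WT 1 and WT 2. Myd88 lies between 2059 and 2544 in all libraries, while Cd14 lies between 307 and 378 in KO and between 67 and 139 in WT.

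The 3 tested genes whose values over the 4 libraries followed Cd14 most closely, after subtracting each gene's mean, were Zfand2a, Cdkn1a and Arhgef37, with root mean square distances of 0.044, 0.045 and 0.045 log2 units. Zfand2a, a stress-inducible zinc finger gene, had 861 (KO A) and 778 (KO B) normalized counts, against 201 (WT 1) and 339 (WT 2). Cdkn1a, the cell cycle inhibitor p21, had 897 (KO A) and 810.3 (KO B), against 208 (WT 1) and 424 (WT 2). Like Cd14, both were higher in KO A than in KO B and lowest in WT 1. This order follows from how they were picked and is not a separate observation. With 4 libraries the likeness is a description only.

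Among the receptors above these adaptors, calls were made in both directions. Each called gene named from the lists below lost its call without KO A and without KO B, as Cd14 and Irak3 did. Of 17 tested TIR receptors 1 rose, 3 fell and 13 did not pass, with a median difference of 0.11, where 4.69% of all tested genes were higher and 2.23% lower. Tlr2, the lipoprotein receptor, rose by 0.65 (adjusted p = 0.0206, limma). Its partner Tlr1 fell by 0.77 (adjusted p = 0.0147, limma), and Tlr11, a profilin receptor of mouse, fell by 0.68 (adjusted p = 0.0191, limma). Tlr5, the flagellin receptor, fell by 0.40 (adjusted p = 0.0487, limma), but missed the threshold under 3 of the 4 other processings that kept it (adjusted p of up to 0.0536) and without any 1 of the 4 libraries (adjusted p = 0.0772 to 0.169).

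The receptor complex that CD14 serves did not pass. Tlr4 stood at 678 and 672 normalized counts in KO, against 488 and 606 in WT, and differed by 0.19 (adjusted p = 0.306, limma). Ly96, which encodes MD-2, was too low to be tested, with 114 and 79 normalized counts in KO, against 90.1 and 68 in WT. Of 11 tested trafficking factors and co-receptors 0 rose, 0 fell and 11 did not pass, with a median of 0.02. This list holds Unc93b1 and Cnpy3, a TLR folding factor, which differed by -0.29 (adjusted p = 0.0809, limma).

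Below the adaptors, no gene of the lists of kinase complexes passed. With 6.93% of all tested genes called, lists this short may hold no call, so nothing particular to them is read from these counts. Of 12 genes of the TAK1 and IKK complexes 0 rose, 0 fell and 12 did not pass, with a median of -0.01. Of 12 genes of the TRIF arm, among them Tbk1 and Irf3, 0 rose, 0 fell and 12 did not pass, with a median of 0.0027. Of 5 interferon regulatory factors linked to MyD88, 0 rose, 0 fell and 5 did not pass. Unadjusted, 24.7% of all tested genes had a p under 0.05, as had 3 of the 10 members.

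Of 7 tested Pellino and TRAF scaffold genes 1 rose, 1 fell and 5 did not pass, where 4.69% of all tested genes were higher and 2.23% lower. Traf1, a TRAF family member induced by NF-kB, fell by 0.60 (adjusted p = 0.0199, limma). Sqstm1, the scaffold p62 that binds TRAF6, rose by 0.42 (adjusted p = 0.0475, limma), a call that was lost under 4 of the 5 other processings (adjusted p = 0.0508 to 0.0739) and without KO A, KO B or WT 1 (adjusted p = 0.0960 to 0.171). Of 17 tested negative regulators 2 rose, 0 fell and 15 did not pass, with a median of 0.03. Tnfaip3, which encodes the deubiquitinase A20 that acts on TRAF6, rose by 1.27 (adjusted p = 0.0138, limma). Nlrx1, a mitochondrial inhibitor, rose by 0.39 (adjusted p = 0.0488, limma), a call lost under 3 of the 5 other processings (adjusted p = 0.0515 to 0.0627) and without any 1 library (adjusted p = 0.120 to 0.163).

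Genes known to be induced through MyD88 or TRIF were mostly higher. Of the 16 that were tested, 11 rose and 2 fell, where 4.69% of all tested genes were higher and 2.23% lower. Under the other processings, calls in either direction numbered between 9 (log2 of the count plus 1) and 13 (no filter), with 10 after quantile normalization. The median of the 16 was 0.82, against -0.0017 over all tested genes. Cxcl2, 1 of the 11, averaged 9.97 in KO and 8.60 in WT (log2), so it passed the filter only through its KO values. The count and the median thus hold a gene that the filter kept for being high in KO. Ptgs2, the inducible cyclooxygenase, rose by 1.93 and the chemokine gene Ccl3 by 1.82 (adjusted p = 0.0147 each, limma). Cd40, a co-stimulatory receptor, fell by 0.69 (adjusted p = 0.0162, limma) and Bcl3, a nuclear IkB protein, fell by 0.51 (adjusted p = 0.0374, limma; 0.0801 to 0.148 without KO A, KO B or WT 2). The same KO libraries held more RNA of immediate early genes and of monocyte and macrophage markers, as given beside Cd14, and the part of these in the target genes was not tested.

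**Figure D5:**
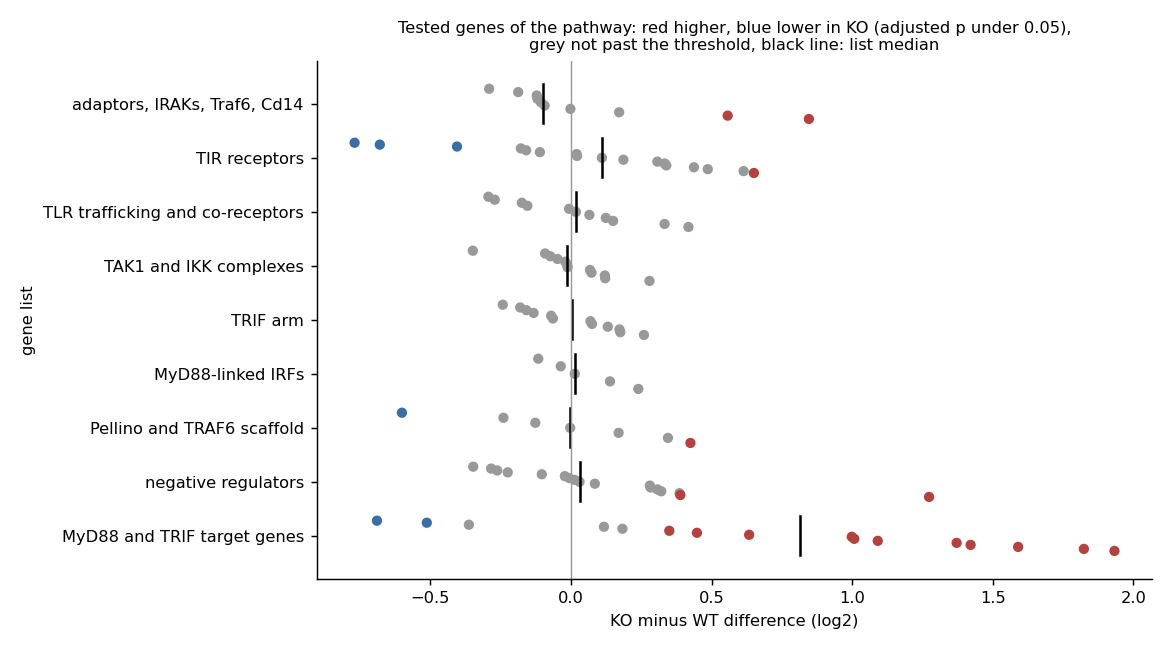
KO minus WT difference on the log2 scale (horizontal axis) of each tested gene in 9 pathway lists, with red for higher and blue for lower in KO at an adjusted p under 0.05 and a black line at the list median. The medians of 8 lists lie between -0.10 and 0.11, and that of the MyD88 and TRIF target genes is 0.82.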

How the data were processed

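Libraries of sorted splenic dendritic cells were made with a stranded kit for total RNA at low input, per the labels' protocols. The authors deposited log2 values on a variance-stabilized scale, already scaled between libraries. Salmon 1.10.1, DESeq2 and GRCm39 are named in the submitters' processing notes without a role. For annotation and gene filter, the sources used here give nothing. The depth in reads is unknown.

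Normalized counts were obtained by inverting the transform from its shared lowest value alone. Symbols came from GENCODE M21 (17289 of 17300 identifiers). Genes whose mean lay 1 log2 unit or more over the lowest value (11864) were tested, KO against WT, with limma 3.58.1 in R 4.3.3 (empirical Bayes with intensity trend, 6.48 total degrees of freedom, two-sided, Benjamini-Hochberg over all tested genes, threshold 0.05). The fit was tested on simulated data, with noise drawn independently for each gene and library. The spread of this noise followed the mean level alone. Differences shared by the genes of a library, or in spread between genes of like level, were not simulated. That test does not bear on them. All 10 members passed the filter. The members, gene lists and motifs were chosen with earlier results of these data known. Named genes were all members, Unc93b1, up to 4 called genes per pathway list by smallest p (2 per direction, unused places passed on) and the 3 genes closest to the called member of largest difference. Tlr4, Ly96, Cnpy3, Cxcl2, Nr4a1, Ddx3y, Eif2s3y and genes overlapping members were added after their values were seen. Of the target genes, 2 of 23 were not analysed here and 5 were below the filter. Alternatives were no filter, a filter of 2 log2 units, no intensity trend, quantile normalization, log2 of the count plus 1, and leaving out each library. No set test was made.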

Additional observations from a re-analysis of the deposited data

How the results depend on the processing

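All 10 members kept the direction of their difference under the 5 other processings that could be run for them, and Myd88 alone changed sign, without KO B (0.14) and without WT 2 (0.07), at adjusted p-values of 0.515 and 0.850 in limma. No member that missed the threshold passed it under any alternative. The filter of 2 log2 units removed Cd14, so that 1 member passed there. Leaving out each library in turn, the members past the threshold numbered 0 to 2, the Cd14 difference ran from 0.65 to 1.04, that of Irak3 from 0.53 to 0.58 and that of Siglece from -1.44 to -1.20. Over all genes 0 to 820 passed, 0 to 620 higher and 0 to 200 lower in KO. With quantile normalization 366 were higher. With log2 of the count plus 1 the differences of Cd14 and Irak3 were 1.82 and 0.78. No paired analysis was possible because the KO columns carry other numbers than the KO sample titles. With 2 libraries a group, and with the depth hidden by scaling, small differences such as those of Ticam2 and Irak1 could not be resolved.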
